A study of Mus musculus and Homo sapiens with 22 samples.

Results

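Complex splicing variations were exons for which 4 or more junctions to partner sites were listed in HEK293 RNA, with no retained intron among the options. Listed junctions need not be in use, and the median number with a PSI of at least 0.05 was 2 in each group. They were taken from the authors' deposited MAJIQ table as every entry with at least 4 junctions whose type string did not end in the retained-intron mark. This gave 4923 of 107827 variations (4.57%), in 3320 genes. The rule used the structure of each variation and no measured level. The remaining entries comprised 8012 variations with 3 junctions, 23412 with 2 junctions and 71480 with a retained intron.

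One group of cells carried P301S tau repeat domain fused to YFP and to CFP, and was transfected with 200 ug of clarified brain homogenate from P301S mice, so that tau aggregates formed over 96 h (3 plates). The mock transfected cells were the same HEK293 biosensor line without tau aggregates at 96 h (3 plates). HEK293 is a human embryonic kidney line, and both groups make the aggregation-prone fusion proteins, so the comparison is not one of presence and absence of these proteins. The treatment protocol names homogenate of WT or P301S tau mice, while the mock plates are labelled mock transfected alone. Whether they received WT homogenate is therefore not known; if they did not, aggregates and homogenate cannot be told apart. The series held 22 samples in all, 12 of them mouse brain and 4 from HEK293 cells at 24 h. The 24 h samples, 2 of total RNA and 2 of sorted tau aggregates, were all from cells listed with 200 ug of homogenate. In those 24 h total RNA libraries, NEFL, NEFM and INA, neuronal intermediate filament genes that this line expresses, stood at 17.1 and 16.3, 27.4 and 26.3, and 13.4 and 13.5 FPKM. PAX2, a kidney transcription factor, was at 2.65 and 2.26 FPKM and LHX1 at 0.618 and 0.824 FPKM.

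During splicing, the 5′ splice site at the end of 1 exon is joined to the 3′ splice site at the start of a later exon, and the intron between is removed. Many exons have several possible partners. A source variation lists the partners downstream of 1 exon, and a target variation lists those upstream. PSI (percent spliced in, given here from 0 to 1) is the estimated share of the reads at that exon that use a given junction. SR proteins and hnRNPs, abundant nuclear RNA-binding proteins, are known to shift these choices, and many splicing factors gather in nuclear speckles.

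The members included 2102 source and 2821 target variations. Exon skipping was an option in 4838 (98.3%), an alternative 5′ splice site in 2075 (42.1%), an alternative 3′ splice site in 2052 (41.7%) and all 3 event kinds in 681 (13.8%). Most had few junctions: 2792 had 4, 1126 had 5, 476 had 6, 425 had 7 to 9 and 104 had 10 or more. Together they held 24272 junction entries, of which 14009 (57.7%) had a PSI under 0.05 in both groups. A name was found for 4600 (93.4%) through the gene IDs of the authors' intron table, and 4329 lay in protein-coding genes. Because 1376 of them shared a junction with another member and 1036 genes held 2 or more, the members are not independent of one another.

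Each PSI in the table is 1 value per group that the authors estimated over the libraries of the group, so no spread between plates can be given and no test over plates can be run. A variation was counted as called when any junction had a deposited change in PSI of at least 0.1 and a deposited probability of at least 0.95 that the change was 0.2 or more. The deposited change is tau aggregates minus mock. It need not equal the plain difference of the 2 PSI values. For many junctions it was smaller in size, and for some of the largest changes slightly larger.

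Most complex variations had 1 dominant junction, whose level was close in the 2 groups. The median PSI of the leading junction was 0.9 in cells with tau aggregates and 0.903 in mock cells. The median effective number of junctions, the inverse of the summed squared shares, was 1.23 with tau aggregates and 1.22 in mock. At least 3 junctions reached a PSI of 0.05 in 23.4% of variations with tau aggregates and in 23.3% in mock. The largest change of any junction had a median of 0.0169 and an upper quartile of 0.0443, and it stayed under 0.05 in 3851 variations (78.2%).

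Changes of at least 0.1 were found in 354 complex variations, or 7.19%, against 4.77% of variations with 3 junctions, 1.96% with 2 junctions, 2.39% with a retained intron and 2.69% of the whole table. The largest of several values was taken, so a variation with more junctions had more chances to reach 0.1. Outside the noncoding loci FP236383.1 and FP671120.2 the share was 5.53% with 4 junctions, 8.24% with 5, 7.07% with 6, 7.46% with 7 to 9 and 10.7% with 10 or more.

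Of the complex variations, 14 were called, or 0.284%, against 0.115% of the whole table. The share was 0.187% with 3 junctions, 0.0598% with 2 junctions and 0.113% with a retained intron. In these 14, 13 junction entries were higher and 9 lower in cells with tau aggregates. A junction listed in both a source and a target variation counted in each, as did chr21:8394883-8395047. In all 14 the leading junction of the aggregate cells was not that of the mock cells, but calls were picked for a large change, which favours this. The smaller of the 2 groups' leads over the next junction was 0.037 in NBPF10, 0.021 in HERC2P2 and 0.008 in an exon of FP671120.2. Only 3 of the 14 lay outside the loci FP236383.1 and FP671120.2. Without these loci, 3 of 4856 complex variations were called, or 0.0618%, against 0.0856% of the whole table, 0.125% of variations with 3 junctions, 0.0556% with 2 junctions and 0.0926% with a retained intron. Both noncoding loci lie on the short arm of chromosome 21 and held 67 complex variations, 11 of them called (16.4%).

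**Figure D1:**
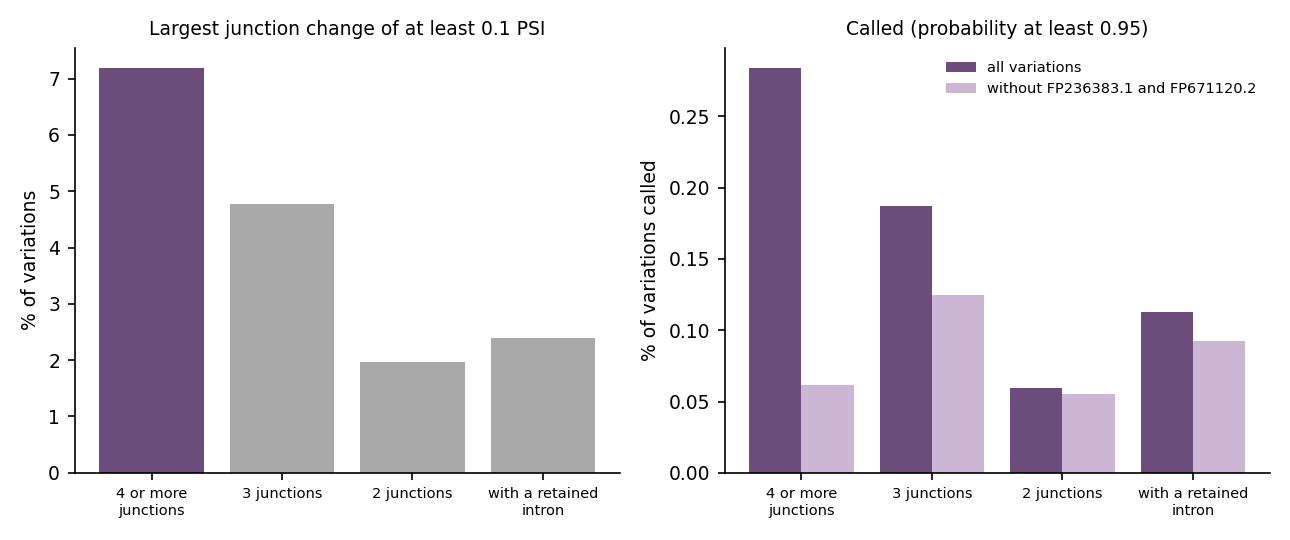
The left bars give the percentage of variations whose largest junction change was at least 0.1 PSI, for complex variations and the 3 other classes. The right bars give the percentage called, for all variations and without FP236383.1 and FP671120.2; the complex class has 0.284% called with these loci and 0.0618% without them.

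DLG5, a membrane-associated scaffold protein of cell polarity and cell contacts, had the largest called change outside the loci. The variation was a source exon of 422 bases at chr10:77889086-77889507 (hg38, minus strand) with 4 junctions. The junction chr10:77888998-77889086, which leaves out 87 bases, had a PSI of 0.666 with tau aggregates and 0.03 in mock. The authors' deposited table gives a change of 0.647 and a probability of 1.0 for it. A second junction of 87 bases, chr10:77889085-77889173, had a PSI of 0.137 with tau aggregates and 0.552 in mock (change -0.41, probability 0.965 in the authors' deposited table). These 2 junctions have the same length and stand 87 bases apart, so that the start of one adjoins the end of the other. The third, chr10:77888998-77889115, leaves out 116 bases and had a PSI of 0.192 with tau aggregates and 0.414 in mock. A long junction of 20231 bases was nearly unused, at 0.005 with tau aggregates and 0.006 in mock.

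In NBPF10, a member of the multicopy neuroblastoma breakpoint family, a target exon at chr1:146068003-146068616 (minus strand, 614 bases) had 5 junctions. The junction chr1:146068298-146077763 had a PSI of 0.239 with tau aggregates and 0.636 in mock. The junction chr1:146068521-146077986 had 0.336 with tau aggregates and 0.003 in mock. Both leave out 9464 bases and stand 223 bases apart. In the authors' deposited table, the changes were -0.40 and 0.31, with probabilities of 0.983 and 0.967. The shortest junction, of 596 bases, had 0.299 with tau aggregates and 0.244 in mock. Reads can be split among near-identical copies of this family, so its values are uncertain.

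HERC2P2, a transcribed pseudogene related to the ubiquitin ligase gene HERC2, had a called source exon at chr15:22560788-22560997 (plus strand). Its junction of 124 bases, chr15:22560935-22561060, had a PSI of 0.001 with tau aggregates and 0.319 in mock (change -0.29, probability 0.981 in the authors' deposited table). The junction of 322 bases, chr15:22560935-22561258, had 0.451 with tau aggregates and 0.225 in mock. Of 2 junctions of 62 bases, placed 62 bases apart, 1 had 0.117 with tau aggregates and 0.027 in mock, and the other 0.43 with tau aggregates and 0.429 in mock. The 124 bases of the called junction are 2 times 62. HERC2P2 shares sequence with its relatives, so these values are uncertain too. The gene values at 24 h were 23.9 and 21.4 FPKM in sorted aggregates and 16.4 and 15.5 FPKM in total RNA for DLG5, and 20.2 and 23.4 FPKM in sorted aggregates and 16.6 and 16.1 FPKM in total RNA for HERC2P2. NBPF10 was low, with 2.0 and 1.57 FPKM in sorted aggregates and 1.39 and 1.42 FPKM in total RNA, and 0 of its 14 introns had an adjusted p in the authors' deposited table.

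**Figure D2:**
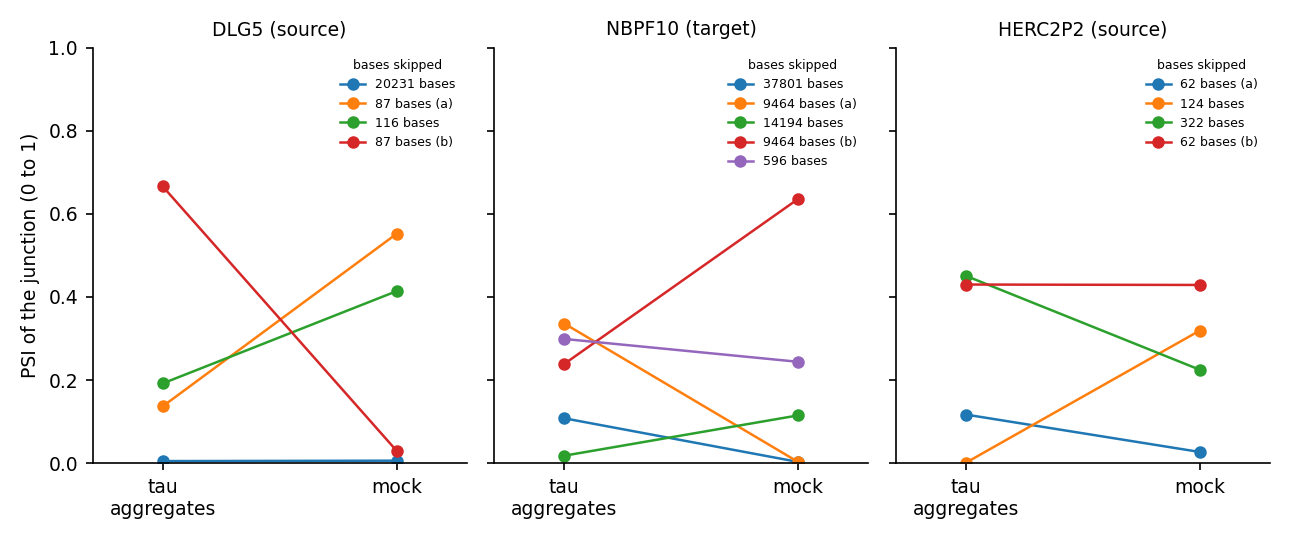
PSI (0 to 1) of every junction in the called variations of DLG5, NBPF10 and HERC2P2, with tau aggregates on the left and mock on the right of each panel; lines join the 2 values of a junction and the legend gives the bases it leaves out (a and b mark 2 junctions of equal length). In DLG5 the 2 junctions of 87 bases cross, at 0.666 with tau aggregates against 0.03 in mock and at 0.137 against 0.552.

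FP236383.1 held 52 complex variations, 9 of them called, and FP671120.2 held 15, 2 of them called. Both are annotated as long noncoding RNA genes, in a stretch of chromosome 21 where copies of the ribosomal DNA repeat lie. Their junction ends fell into 2 blocks, chr21:8206453-8227180 with 426 ends and chr21:8383921-8453320 with 1252 ends. Many pairs of ends were separated by exactly the same distance: 126 pairs by 44215 bases, 111 by 227234 bases and 106 by 183035 bases. Reads of near-identical copies may not be assignable to 1 copy, so the PSI values here are uncertain.

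The exons of these variations had a median length of 28 bases, against 188 bases in the complex variations elsewhere. Of the 67, 33 had a junction leaving out fewer than 50 bases, against 41 of 4856 elsewhere (0.844%). Junction use was spread out, with a median effective number of 3.06 with tau aggregates and 3.05 in mock. In the authors' intron table, an intron of FP671120.2 had the highest mean normalized count of all introns, 146506, and an intron of FP236383.1 had rank 5 with 23657. None of their introns had an adjusted p under 0.05 in the authors' deposited table; the smallest were 0.646 and 0.707.

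The largest called change of all was in an exon of FP671120.2 of 310 bases, chr21:8207340-8207649. Its leading junction had a PSI of 0.821 with tau aggregates and 0.123 in mock, and the effective number of junctions was 1.45 with tau aggregates and 6.8 in mock. The variation with the most junctions in the whole table, 38, was a source exon of FP236383.1 at chr21:8391516-8391656. One of its junctions, leaving out 43697 bases, had 0.579 with tau aggregates and 0 in mock, and the effective number was 2.82 with tau aggregates and 10.8 in mock. Other members went the opposite way. The source exon at chr21:8396244-8396260, 17 bases long, used 1 junction at 0.258 with tau aggregates and 0.941 in mock. For the source exon at chr21:8396199-8396216 these values were 0.23 with tau aggregates and 0.835 in mock. Of the 14 called variations, the effective number was higher by at least 0.1 with tau aggregates in 5 and lower in 8.

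**Figure D3:**
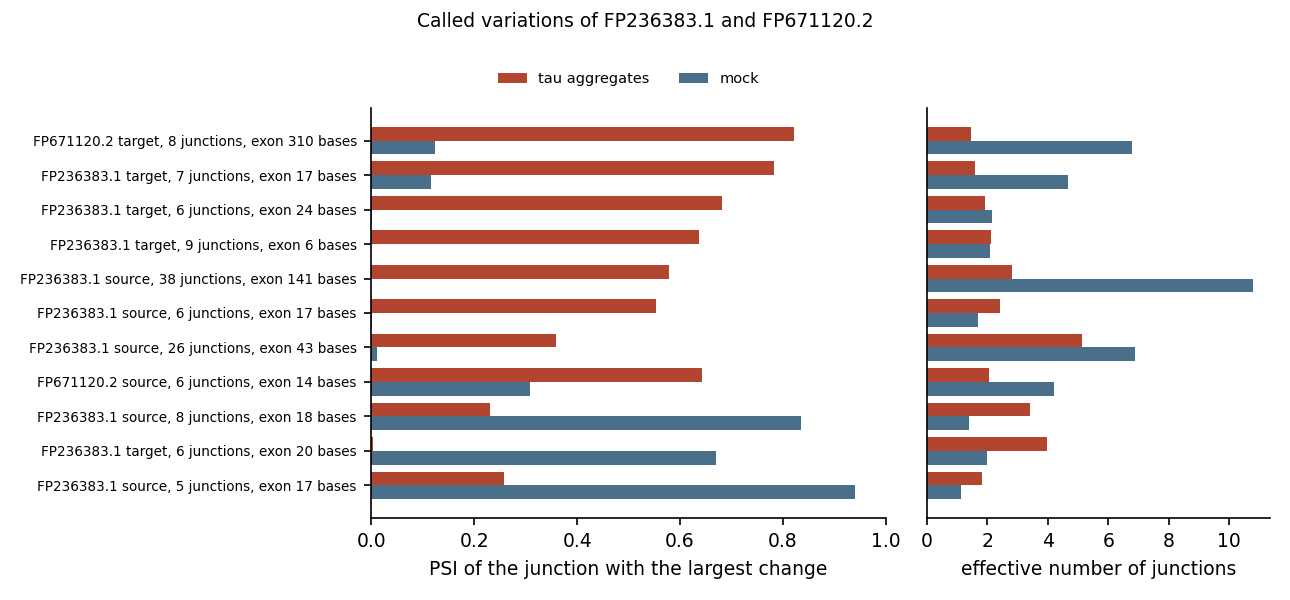
Left, PSI of the junction with the largest change in each called variation of FP236383.1 and FP671120.2; right, the effective number of junctions of the same variations; the upper bar of a pair is tau aggregates, the lower bar mock. The variation with 38 junctions has an effective number of 2.82 with tau aggregates and 10.8 in mock.

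The equal and multiple lengths seen in DLG5 and HERC2P2 were then counted in every complex variation; this count was chosen after these values had been seen. A variation was counted when, among its junctions leaving out 20 to 2000 bases, 2 left out the same length or 1 a whole multiple of another. Outside the loci this held for 90 of 4856 variations (1.85%), and in the loci for 33 of 67 (49.3%). Outside the loci, it held for 11 of the 41 variations whose largest change was at least 0.2 (26.8%). With a change of 0.1 to 0.2 it held for 14 of 277 (5.05%), with 0.05 to 0.1 for 20 of 704 (2.84%), and with less than 0.05 for 45 of 3834 (1.17%). Among variations with at least 2 such short junctions, the shares were 42.3%, 9.4%, 5.35% and 2.18% in the same order of falling change. With a shortest length of 50 bases instead of 20, the 4 counts were 11, 11, 18 and 42.

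Outside the loci, the median effective number of variations with such lengths was 1.58 with tau aggregates and 1.56 in mock, against 1.22 with tau aggregates and 1.21 in mock in the others. The gap differed between the classes of change. With a change under 0.05, the medians with tau aggregates were 1.16 and 1.15 in the others. With 0.1 to 0.2 they were 1.82 with tau aggregates and 2.22 in mock, against 1.9 and 1.93 in the others. With at least 0.2 they were 2.5 with tau aggregates and 2.97 in mock, against 2.08 and 1.89 in the others. Some multiples of a short length can coincide without a repeat in the sequence, which was not looked at. Whether such junctions are splicing events, or come from reads over repeated units, was not tested.

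**Figure D4:**
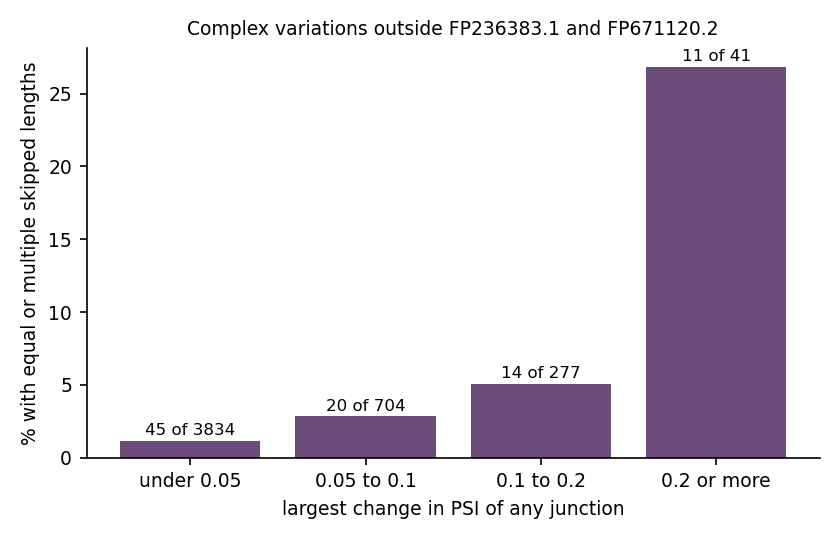
Percentage of complex variations outside FP236383.1 and FP671120.2 in which 2 junctions left out equal lengths or a whole multiple of one another, by the largest change in PSI of any junction, with the counts above the bars. The share is 1.17% under 0.05 and 26.8% at 0.2 or more.

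EHMT1, a histone H3 lysine methyltransferase, had a source exon of 47 bases at chr9:137809892-137809938 with 5 junctions that left out 1, 2, 4, 5 and 6 times 47 bases. The longest, of 282 bases, had a PSI of 0.395 with tau aggregates and 0.125 in mock. The shortest had 0.097 with tau aggregates and 0.297 in mock. In AVL9, 4 junctions into 1 target site left out 92, 184, 368 and 552 bases. The junction of 368 bases had 0.67 with tau aggregates and 0.389 in mock, and that of 92 bases 0.003 with tau aggregates and 0.244 in mock. RABL6, a Rab-like GTPase gene, had at the target exon chr9:136833152-136833282 junctions of 43, 86, 86 and 172 bases. Here 1 of those with 86 bases had 0.265 with tau aggregates and 0.003 in mock. OGFR, the opioid growth factor receptor gene, had junctions of 60 and 120 bases into the exon chr20:62813441-62813596, and 1 of 60 bases had 0.413 with tau aggregates and 0.171 in mock. In VAPB, which encodes an endoplasmic reticulum tether protein, 2 junctions of 67 bases into the exon chr20:58427432-58427545 stood 38 bases apart, and 1 of them had 0.3 with tau aggregates and 0.019 in mock. None of these genes reached the probability of 0.95.

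**Figure D5:**
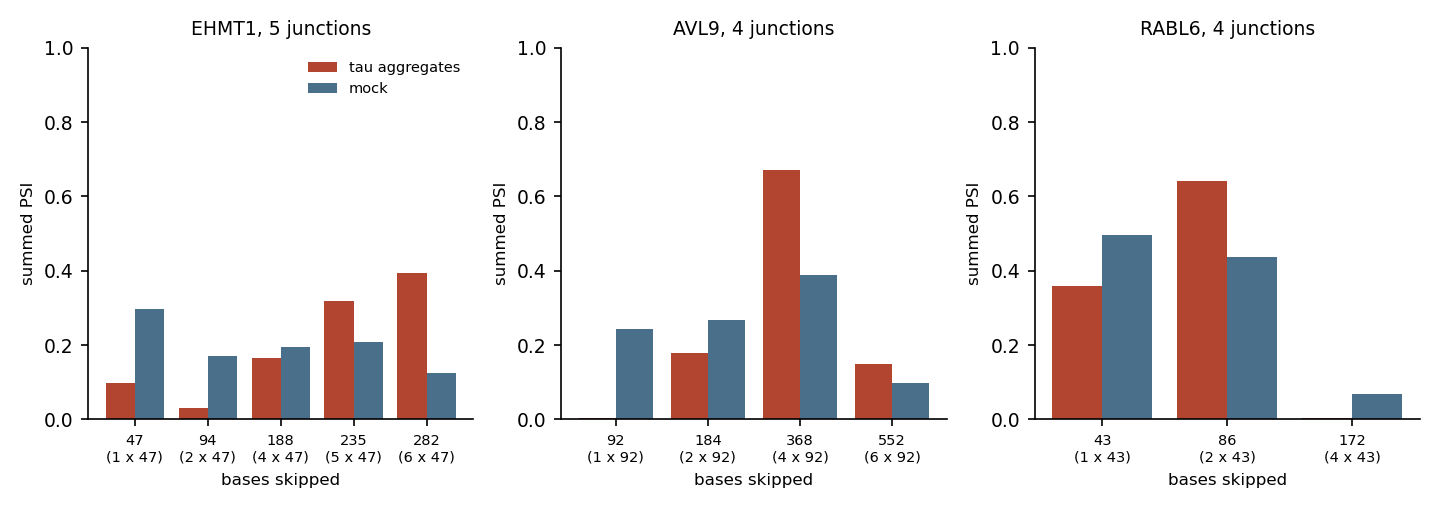
PSI summed over junctions of equal length in 3 complex variations, with tau aggregates to the left of mock; the axis gives the bases left out and, in brackets, their multiple of 47, 92 or 43 bases. In EHMT1 the longest junction, of 282 bases, has 0.395 with tau aggregates and 0.125 in mock.

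The EHMT1, AVL9 and RABL6 variations belong to a wider set with a deposited probability of at least 0.5, a looser threshold than the one for calls; its members were named after their values had been seen. It held 61 complex variations (1.24%, against 0.537% of variations with 3 junctions, 0.248% with 2 junctions, 0.362% with a retained intron and 0.39% of the whole table), 20 in the noncoding loci and 41 elsewhere in 38 genes. Of the 41, 38 were not called, the junction with the largest change was higher with tau aggregates in 26 and lower in 15, and the leading junction differed between groups in 13. The target exon chr19:9338494-9338582 was listed under both ZNF559-ZNF177 and ENSG00000188321, with nearly the same values. It therefore entered the 41, the 15 and the 13 under each record. In CSAD, which encodes a decarboxylase of taurine synthesis, a junction of 1379 bases had 0.454 with tau aggregates and 0.117 in mock, and one of 440 bases from the same site had 0.537 with tau aggregates and 0.864 in mock. CSAD had the highest probability of the 38, 0.903 in the authors' deposited table. A junction of 6156 bases in RCBTB2 had 0.938 with tau aggregates and 0.623 in mock, where 3 other junctions held the rest.

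PRDM16, a zinc finger regulator of fat and blood stem cells, had a junction at 0.616 with tau aggregates and 0.912 in mock. HEXIM2, an inhibitor of the elongation kinase P-TEFb, had one at 0.437 with tau aggregates and 0.707 in mock. DPY30, a subunit of histone H3 lysine 4 methyltransferase complexes, had one at 0.532 with tau aggregates and 0.789 in mock. For SOCS2, a suppressor of cytokine signalling, the values were 0.591 with tau aggregates and 0.832 in mock. For RNF6, an E3 ubiquitin ligase, they were 0.765 with tau aggregates and 0.461 in mock.

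TLN2 encodes talin 2, which links integrins to actin. Its longest junction, of 199001 bases, had a PSI of 0.537 with tau aggregates and 0.867 in mock, and a junction of 135945 bases had 0.291 with tau aggregates and 0.052 in mock. In the authors' deposited table of introns, 2 TLN2 introns inside this variation were lower with tau aggregates, with log2 changes of -0.69 ± 0.16 and -0.60 ± 0.16 (SE) and adjusted p-values of 0.00436 and 0.0163. They were the only introns with an adjusted p under 0.05 inside the 41 variations, of 39 with an adjusted p. Inside the 14 called variations, 0 of 7 introns with an adjusted p passed in either direction. Inside all complex variations, the authors' deposited table called 64 of 8411 introns higher (0.761%) and 25 lower (0.297%), against 1.5% higher and 0.146% lower over all 82091 introns.

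Leading junctions that differed between groups were found in 150 complex variations (3.05%), against 1.32% with 3 junctions, 0.649% with 2 junctions, 2.13% with a retained intron and 1.79% of the whole table. Outside the loci there were 126 (2.59%). In many of the 150, loci included, the first and second junctions were close: the lead was at least 0.05 in both groups in 70 and at least 0.1 in 29. Outside the loci, GATA3, a transcription factor gene, had the largest such margin, 0.201. Its junction chr10:8053778-8055287 led with 0.497 in cells with tau aggregates, against 0.269 in mock, and chr10:8045515-8055287 had 0.296 with tau aggregates and led with 0.472 in mock. The GATA3 change did not reach the threshold (probability 0.435 in the authors' deposited table).

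The spread of use over junctions moved both ways. The effective number was higher by at least 0.1 with tau aggregates in 971 complex variations (19.7%) and lower in 872 (17.7%), against 13.0% and 10.4% of the whole table. The shortest junction, to the nearest site, was higher with tau aggregates in 5 of the 14 called variations and lower in 9, taking the first listed where several were equally short. In 3 of the 14, DLG5 among them, 2 or more junctions were equally short, and in 2 of these the first and last listed moved in opposite directions. In the other 11 it was higher in 4 and lower in 7. Among the 1072 complex variations with a change of at least 0.05 it was higher in 497 and lower in 575 (53.6%), and with 2 junctions it was lower in 56.4% of 1600.

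Many junctions did not go with a large change. MXI1, a MYC antagonist gene, had 31 junctions into 1 exon, and its leading junction had 0.545 with tau aggregates and 0.557 in mock; its largest change was 0.007. TCF4, a helix-loop-helix transcription factor gene, had 16 junctions with the leading one at 0.876 with tau aggregates and 0.9 in mock. In DDR1, a collagen receptor kinase gene with 16 junctions, the leading junction had 0.592 with tau aggregates and 0.797 in mock, with a probability of 0.269 in the authors' deposited table.

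Over the whole table, 3320 of 13524 genes held complex variations. Among listed genes found there, so did 7 of 30 nuclear speckle and SR protein genes and 13 of 45 RNA-binding protein genes. For spliceosome core genes it was 3 of 39, and for tau, microtubule and aggregation genes 13 of 35. No complex variation of these lists was called, had a probability of at least 0.5 or had a change of at least 0.1. Over all complex variations 0.284%, 1.24% and 7.19% did. At these list sizes few or none would be called at the share over all complex variations. That share is larger for a change of at least 0.1, and whether the lists differ from it was not tested. Of 35 nuclear speckle and SR protein genes, 7 had complex variations, 9 in all, with a median largest change of 0.0109, against 0.0169 over all complex variations. The largest was in SRSF5, an SR protein gene, whose leading junction had 0.523 with tau aggregates and 0.575 in mock. Of 49 genes of hnRNPs and disease-linked RNA-binding proteins, 13 had 19 complex variations, with a median of 0.00849 and the largest change, 0.0533, in TAF15. Of 42 spliceosome core genes, 3 had 1 each, with a median of 0.0316; the largest, in the helicase gene DHX8, was 0.0355. Of 39 genes of tau, microtubules and aggregation, 13 had 19, with a median of 0.00745. The largest was in TPM1, a tropomyosin gene, where a junction had 0.497 with tau aggregates and 0.385 in mock (probability 0.0441 in the authors' deposited table).

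Genes with complex variations outside the loci had a median of 12.4 FPKM in the 24 h total RNA libraries (2937 of 3084 named genes matched), against 10.9 FPKM for genes with other variations alone (7287 of 8253). They had a median of 10 variations of any kind per gene, against 6.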

How the data were processed

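Total RNA of HEK293 biosensor cells at 96 h was sequenced from 3 plates with tau aggregates and 3 mock plates. The aligner was STAR 2.6.0c and the build hg38, per the submitters' processing notes. Which release of MAJIQ or iREAD was run, and how it was set, is not given in the sources used here. Per the file headers, the MAJIQ table deposited by the authors holds a count of junctions per variation and, as other values, lists of PSI per group, of the change and of its probability, 1 per junction. The intron table deposited by the authors holds a mean count as signal, a log2 change with its SE, a test statistic (a score, not used) and an adjusted p-value. The 24 h gene values deposited by the authors are FPKM. No table gives counts or values per 96 h library, so their depth is unknown, and precision rests on the authors' probabilities.

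Analyses used Python 3.11.15, pandas 2.3.3 and numpy 2.4.6. The change was checked to run as tau aggregates minus mock: all 4637 junction changes of at least 0.1 had that sign. The direction of the intron change was read from the data: 112 of 137 retained introns with a PSI change of at least 0.1 had the same sign (81.8%). The column headed as the probability of a change of at most 0.05 was not used, since its median was 5.2% for junctions with a change under 0.01. Strand was read from the position of junctions relative to their exon. The effective number and leading junction were computed from PSI, and the shortest junction from coordinates. The functions recovered simulated answers. The simulated variations were all plus-strand sources without equally short junctions, so other layouts were not checked. Named variations are the called ones, up to 30 genes, those with the most junctions, and those whose leading junction differs by the largest margin; further ones were chosen after their values were seen. The members, lists and thresholds were chosen with earlier results of these data known. List genes were matched by symbol; MSUT2 and ZC3H14 are 1 gene listed under 2 names. Alternatives varied the thresholds, the junction minimum and the set of variations. Mouse brain samples were not used here. Some results are not reported here.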

Additional observations from a re-analysis of the deposited data

How the results depend on the processing

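The number of called complex variations, 14, was 17 at a probability of 0.9, 11 at 0.99, 12 with at least 5 junctions and 10 with at least 6. It was 61 at a probability of 0.5 and 61 at a change of at least 0.2 with no probability, and 5 with 1 variation per gene. Alternatives chosen after seeing the data gave 3 without FP236383.1 and FP671120.2, 8 without junctions that leave out fewer than 50 bases, and 9 without variations holding equal or multiple lengths. Leading junctions that differed, 150, became 70 and 29 with leads of at least 0.05 and 0.1. A higher effective number with tau aggregates, in 971, was found in 2475 when any change counted and in 5 among called variations; a lower one, in 872, in 2351 and in 8. The shortest junction, higher in 5 and lower in 9 called variations, was higher in 497 and lower in 575 with a change of at least 0.05, higher in 3 and lower in 5 among called source variations, and higher in 2 and lower in 4 among called target variations. Taking the last listed of equally short junctions gave 5 and 9, and leaving such variations out 4 and 7, both chosen after seeing the data. The other shifts follow from the larger or smaller sets counted. No intron inside called variations passed under any setting. Leaving out a library or de novo junctions was not run, since the table gives neither values per library nor, in the columns used here, which junctions are de novo. No paired analysis was possible because the table holds 1 value per group. The unknown depth of the 96 h libraries limits how rare a junction can be told from 0.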
